A study of Homo sapiens with 12 samples.

Results

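The enzymes described here build asparagine, serine, glycine and one-carbon units, together with 3 neighbours that feed carbon and nitrogen between these routes. They were chosen by Ensembl transcript identifier from a fixed set of 10 genes with 14 alternative identifiers. The rule uses no measured value, but the set was put together with earlier results of these data known. Of the 10 genes, 9 had an identifier in both tables, among 19686 transcripts of the RNA table and 19849 of the footprint table, and 8 of these had counts. PYCR1, which makes proline, was not analysed here. PHGDH, the entry enzyme of serine synthesis, was listed at 0 in every library.

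RKO cells, a human colon carcinoma line with the genotype label WT, had been kept for 24 hours in arginine-free medium with dialysed serum, to which 12.5 uM arginine (starved) or 400 uM arginine (fed) was added back. RNA-seq measured transcript levels, and ribosome profiling counted the mRNA fragments that ribosomes protect from nuclease, called footprints. Each of the 4 groups (starved and fed, in each assay) held 3 libraries, 12 in all. The labels do not say whether the libraries of a group came from separate cultures, so p-values measure the spread between libraries, which may be technical. Totals were 4670881 to 7967215 counts per RNA library and 2063952 to 4364383 per footprint library.

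Cells that run short of an amino acid accumulate uncharged tRNA, which activates the kinase GCN2; this slows initiation on most mRNAs while raising synthesis of the transcription factor ATF4. ATF4 is known to bind composite C/EBP-ATF response elements in the promoters of biosynthetic genes, and ASNS, PSAT1, PHGDH, PSPH, SHMT2, MTHFD2 and PCK2 are among its described targets. Serine is made from the glycolytic intermediate phosphoglycerate by PHGDH, PSAT1 and PSPH in turn. SHMT2 then splits serine in mitochondria into glycine and a one-carbon unit, which MTHFD2 and ALDH1L2 oxidise on folate.

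Promoter sequence was available for 5 of the 10 genes (ASNS, PSAT1, PHGDH, MTHFD2 and PCK2), as RefSeq windows of 300 bases on GRCh38.p14 that run from 250 bases before to 50 bases after an annotated start. The windows of the 3 genes with the largest RNA changes are printed below, 5′ to 3′ on the strand of the gene, to show where the element named above is present and where it is not. ASNS is on the minus strand at chr7:97872359-97872658, PSAT1 on the plus strand at chr9:78296875-78297174 and MTHFD2 on the plus strand at chr2:74198365-74198664. Capitals mark TGATGNAA, the core of the C/EBP-ATF element, and CCAAT, the CCAAT box, each searched on both strands; no 2 matches overlapped in these windows.
ASNS promoter: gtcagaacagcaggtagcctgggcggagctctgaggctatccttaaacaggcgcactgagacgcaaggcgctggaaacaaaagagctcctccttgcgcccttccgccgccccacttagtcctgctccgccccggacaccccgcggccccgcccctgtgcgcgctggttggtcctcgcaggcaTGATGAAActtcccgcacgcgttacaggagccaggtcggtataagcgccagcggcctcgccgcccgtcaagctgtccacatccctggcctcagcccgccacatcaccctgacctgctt
PSAT1 promoter: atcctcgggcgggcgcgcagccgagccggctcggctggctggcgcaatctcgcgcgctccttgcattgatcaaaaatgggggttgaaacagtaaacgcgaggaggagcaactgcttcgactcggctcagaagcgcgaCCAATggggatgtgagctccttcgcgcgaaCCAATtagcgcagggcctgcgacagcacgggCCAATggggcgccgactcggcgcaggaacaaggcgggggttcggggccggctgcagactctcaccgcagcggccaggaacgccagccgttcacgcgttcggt
MTHFD2 promoter: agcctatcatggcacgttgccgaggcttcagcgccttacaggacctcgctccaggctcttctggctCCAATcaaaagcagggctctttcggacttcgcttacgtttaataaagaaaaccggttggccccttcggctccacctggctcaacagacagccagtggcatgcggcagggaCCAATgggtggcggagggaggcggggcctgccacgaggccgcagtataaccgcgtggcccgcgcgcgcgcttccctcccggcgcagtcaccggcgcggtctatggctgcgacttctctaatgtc

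TGATGNAA occurred once, in the ASNS window as TGATGAAA, starting 68 bases before the annotated start. Of all 35116 RefSeq promoter windows, 3.62% held this motif. The second ASNS window of the table and the windows of PSAT1, PHGDH, MTHFD2 and PCK2 had no match, which says only that these letters are not in these bases. CCAAT occurred in 4 of the 6 windows of these 5 genes, and in neither ASNS window, against 34.6% of all windows. It lay at 113, 83 and 52 bases before the start in PSAT1, at 184 and 74 in MTHFD2, at 71 in PHGDH and at 193 in PCK2. The CCAAT search was added after these sequences had been seen. Which start the counted transcripts use is not given in the sources used here, and a match is not evidence of binding.

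Arginine shortage was accompanied by more RNA for most of these enzymes. In the RNA libraries 7 of them had enough counts to be tested, and 6 were called higher in starved cells (ASNS, PSAT1, MTHFD2, PSPH, PCK2 and GPT2), none lower and 1, SHMT2, neither. Called means an adjusted p under 0.05 in the quasi-likelihood test of edgeR, with p-values adjusted by Benjamini-Hochberg over all transcripts. Changes of RNA were frequent in this experiment: 67.9% of the 11572 transcripts tested were called, 33.8% higher and 34.1% lower. The median log2 fold change, starved over fed throughout, was 1.35 over the 7 enzymes and -0.01 over all transcripts. The 95th percentile over all transcripts was 1.15. With library totals in place of TMM scaling factors the median over all transcripts was -0.12, and the 6 enzymes were still called higher. Each change is measured against the rest of its own assay's transcripts, and in bulk libraries a change in every cell and a change in the share of cells that express a gene cannot be told apart.

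ASNS makes asparagine from aspartate with glutamine as nitrogen donor, and its transcript ENST00000175506 changed most. Its RNA had 857, 975 and 972 CPM (counts scaled to library size, with TMM factors) in starved replicates 1 to 3, against 38.9, 37.2 and 44.5 CPM in fed replicates 1 to 3. The lowest starved library was far above the highest fed library. The log2 fold change was 4.53 (SE 0.09, edgeR adjusted p = 1.07e-49), a 23.1-fold rise that ranked 16 of 11572. Its footprints had 804, 1252 and 1164 CPM in the starved libraries, against 60.8, 49.4 and 50.7 CPM in the fed libraries. Starved replicate 1 was the lowest of the starved footprint libraries and still above every fed one. The footprint log2 fold change was 4.31 (SE 0.18, edgeR adjusted p = 2.71e-08), a 19.8-fold rise that ranked 9 of 13457.

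Translational efficiency is the footprint level of a transcript divided by its RNA level. Neither footprint positions nor protein output were analysed here, so a change of this ratio is not a measured change of protein synthesis. The change in efficiency was tested in a model of all 12 libraries as the assay by treatment interaction. Scaling factors were recomputed for that model on the transcripts kept in both assays, so its values lie above the footprint change minus the RNA change given here, by a median of 0.084 over all transcripts and by 0.07 to 0.09 for the 7 enzymes tested. For ASNS its log2 change was -0.15 (95% confidence interval -0.55 to 0.24, edgeR adjusted p = 0.606).

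**Figure D1:**
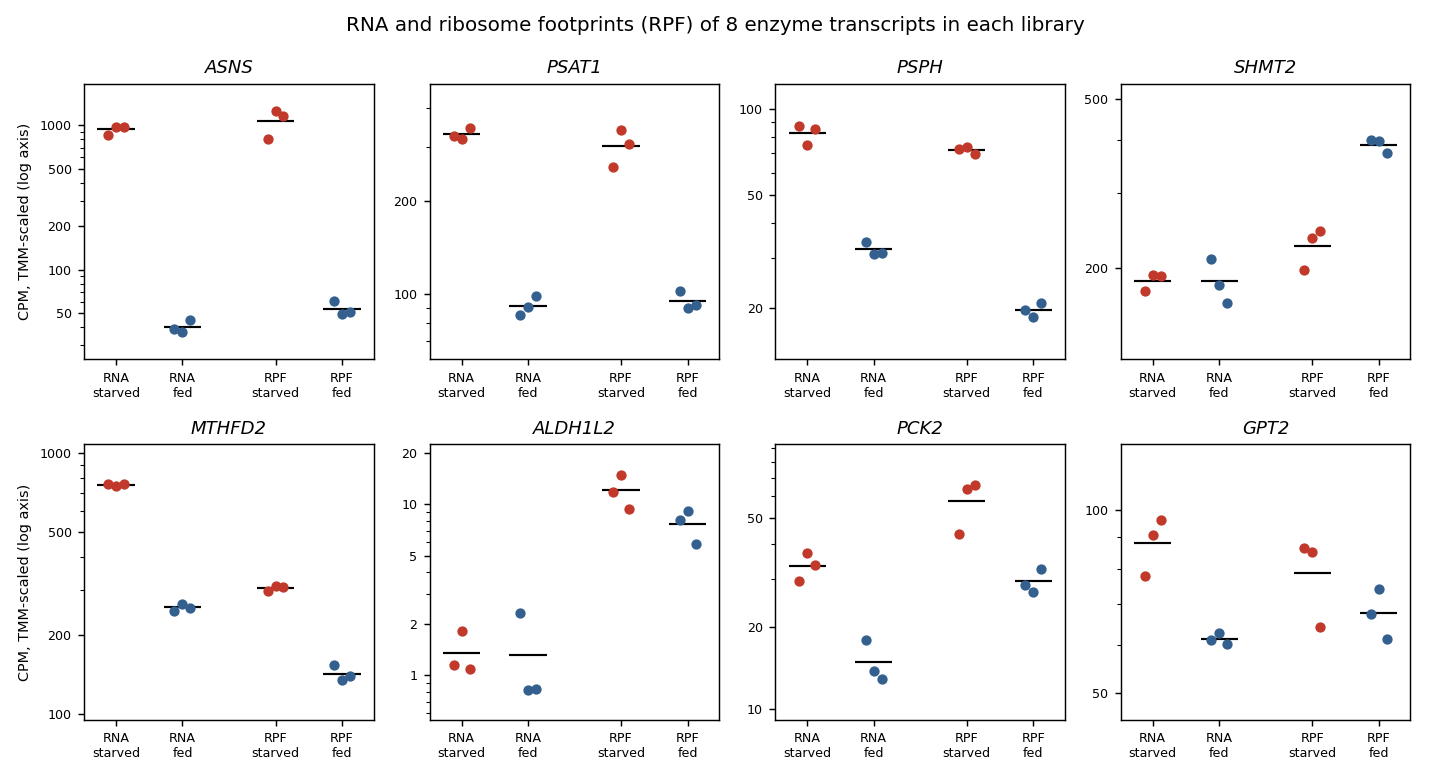
TMM-scaled CPM (vertical log axes, each with its own range) of the 8 enzyme transcripts with counts; points are single libraries, bars are means of 3, with starved libraries in red left of fed libraries in blue. ASNS RNA lies at 857 to 975 CPM in starved and 37.2 to 44.5 CPM in fed libraries, while the treatments of SHMT2 overlap in RNA and lie apart in footprints (RPF).

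RNA and footprints of both serine synthesis enzymes with counts, PSAT1 and PSPH, were higher in starved cells. PSAT1 transfers an amino group to phosphohydroxypyruvate, the second step of the route. Its transcript ENST00000376588 had 325, 319 and 344 CPM of RNA in starved replicates 1 to 3, against 85.4, 90.1 and 98.2 CPM in fed replicates 1 to 3. Its footprints had 257, 340 and 305 CPM in the starved libraries, against 102, 89.8 and 91.6 CPM in the fed libraries. Starved and fed libraries did not overlap in either assay, which held for 69.8% of all transcripts tested in RNA and 50.7% in footprints. The log2 fold changes were 1.85 in RNA (SE 0.07, edgeR adjusted p = 9.64e-33) and 1.67 in footprints (SE 0.14, edgeR adjusted p = 2.64e-06). Efficiency differed by -0.11 (95% confidence interval -0.39 to 0.18, edgeR adjusted p = 0.617).

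PSPH removes the phosphate in the last step and yields serine. Its transcript ENST00000275605 had 87.6, 74.7 and 85.3 CPM of RNA in the starved libraries, against 34.2, 31.1 and 31.4 CPM in the fed libraries. Its footprints had 72.8, 73.9 and 69.8 CPM in starved cells, against 19.8, 18.7 and 20.9 CPM in fed cells. Replicates of each treatment lay close together and the treatments did not overlap. The footprints rose by 1.86 (SE 0.14, edgeR adjusted p = 1.44e-06) and the RNA by 1.35 (SE 0.09, edgeR adjusted p = 2.21e-21), both on the log2 scale. The efficiency of PSPH rose by 0.59 (SE 0.15, edgeR adjusted p = 0.00836) in the joint model, and the footprint change minus the RNA change of the separate fits was 0.51. Its ratio of mean footprint CPM to mean RNA CPM was 0.874 in starved and 0.615 in fed cells. The footprint counts behind this were small, 172 to 260 per starved library and 37 to 86 per fed library.

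PHGDH oxidises phosphoglycerate in the first step. The transcript listed for it, ENST00000641023, had 0 counts in all libraries. Against the totals, 3 counts over a group set upper limits of 0.148 CPM of RNA in starved and 0.153 CPM in fed cells, and of 0.340 CPM of footprints in starved and 0.351 CPM in fed cells. These limits cover counting error only. How reads were shared among the isoforms of a gene is not given in the sources used here, so a 0 for this identifier is no measure of the gene.

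The mitochondrial one-carbon enzymes went different ways. The footprints of SHMT2, which opens the route, fell, while its RNA did not pass the test. Its transcript ENST00000328923 had 176, 192 and 192 CPM of RNA in starved replicates 1 to 3, against 210.3, 183 and 165 CPM in fed replicates 1 to 3, with overlapping groups. The RNA log2 fold change was 0.00028 (95% confidence interval -0.15 to 0.15, edgeR adjusted p = 0.997), and its sign turned under other settings, to -0.11 with library totals alone. Its footprints had 198, 235 and 244 CPM in the starved libraries, against 400.4, 399 and 373 CPM in the fed libraries. All starved footprint libraries lay below all fed ones. On the log2 scale the footprints fell by 0.79 (SE 0.12, edgeR adjusted p = 0.000263). The efficiency of SHMT2 fell by 0.71 (SE 0.14, edgeR adjusted p = 0.000971) in the joint model. The ratio of mean footprint CPM to mean RNA CPM was 1.21 in starved and 2.10 in fed cells.

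MTHFD2, the dehydrogenase and cyclohydrolase that follows SHMT2, had more RNA and, to a smaller extent, more footprints. Its transcript ENST00000394053 had 758, 749 and 762 CPM of RNA in the starved libraries, against 248, 265 and 256 CPM in the fed libraries. Its footprints had 296, 309 and 308 CPM in starved cells, against 154, 135 and 139 CPM in fed cells. The groups did not overlap in either assay. The log2 fold changes were 1.56 in RNA (SE 0.07, edgeR adjusted p = 2.18e-29) and 1.09 in footprints (SE 0.12, edgeR adjusted p = 1.89e-05). Its efficiency fell by 0.39 (SE 0.12, edgeR adjusted p = 0.0201), from the fitted interaction. That call was lost with library totals alone (-0.29, edgeR adjusted p = 0.0903), with the replicate number as a block (-0.38, edgeR adjusted p = 0.054) and without fed footprint replicate 1 (-0.32, edgeR adjusted p = 0.0763).

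ALDH1L2 oxidises formyl-folate in mitochondria and had few counts. Its transcript ENST00000258494 had 8, 11 and 7 RNA counts in starved replicates 1 to 3, against 19, 4 and 6 in fed replicates 1 to 3, too few for the RNA test. Its footprint counts were 28, 42 and 35 in starved cells, or 11.8, 14.9 and 9.39 CPM, against 35, 18 and 12 in fed cells, or 8.06, 9.08 and 5.84 CPM. The starved libraries were all above the fed ones in footprint CPM, though 9.39 CPM in starved replicate 3 was close to 9.08 CPM in fed replicate 2. The fitted log2 fold change of 0.622 (95% confidence interval 0.05 to 1.19, edgeR adjusted p = 0.0765) did not pass the threshold. Without starved footprint replicate 3 the change was 0.80 with an edgeR adjusted p of 0.0390, while without starved replicate 2 it was 0.43 (edgeR adjusted p = 0.253) and without fed replicate 3 it was 0.46 (edgeR adjusted p = 0.239).

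Of the 2 neighbouring enzymes with counts, PCK2 changed in both assays. PCK2 makes phosphoenolpyruvate from oxaloacetate in mitochondria. Its transcript ENST00000216780 had 29.5, 37.1 and 33.8 CPM of RNA in starved replicates 1 to 3, against 17.9, 13.8 and 12.9 CPM in fed replicates 1 to 3. Its footprints had 43.6, 63.6 and 65.7 CPM in the starved libraries, against 28.6, 26.7 and 32.6 CPM in the fed libraries. All starved libraries lay above all fed libraries in each assay. The log2 fold changes were 1.15 in RNA (SE 0.12, edgeR adjusted p = 2.12e-12) and 0.99 in footprints (SE 0.18, edgeR adjusted p = 0.000907), and efficiency differed by -0.07 (95% confidence interval -0.52 to 0.38, edgeR adjusted p = 0.856).

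GPT2, the mitochondrial alanine transaminase, had the smallest called RNA change. Its transcript ENST00000340124 had 77.7, 90.8 and 96.2 CPM of RNA in the starved libraries, against 61.0, 62.8 and 60.1 CPM in the fed libraries. On the log2 scale the RNA rose by 0.53 (SE 0.08, edgeR adjusted p = 6.87e-08), a 1.44-fold rise. A larger rise was seen in 19.4% of all transcripts tested. Its footprints overlapped between treatments, with 86.3, 85.2 and 64.1 CPM in starved cells and 67.3, 74.2 and 61.4 CPM in fed cells. Neither the footprint change of 0.21 (95% confidence interval -0.12 to 0.54, edgeR adjusted p = 0.286) nor the efficiency change of -0.23 (95% confidence interval -0.58 to 0.11, edgeR adjusted p = 0.334) passed the test.

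**Figure D2:**
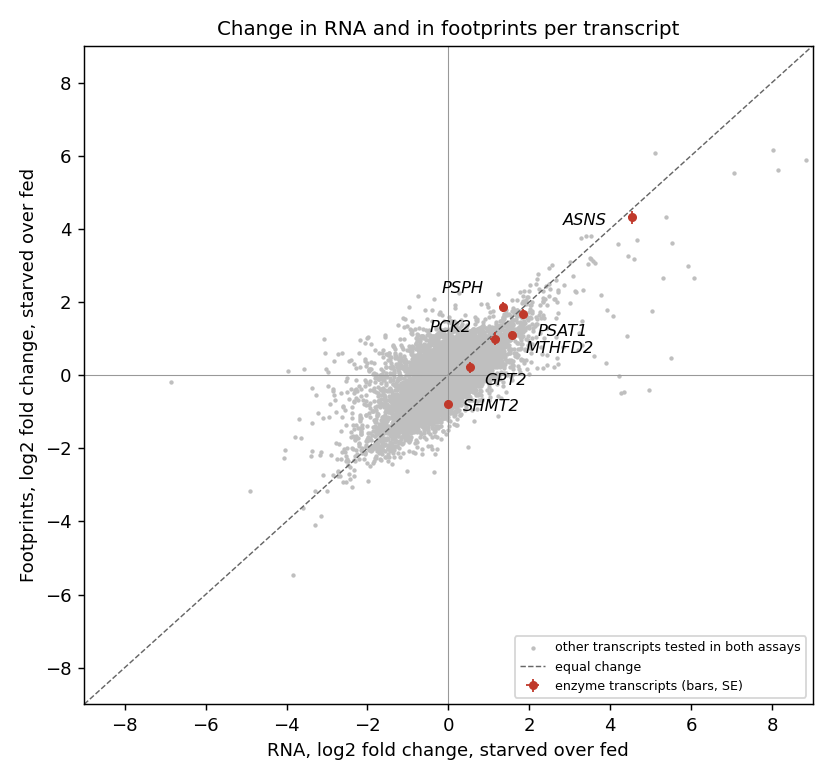
Log2 fold change, starved over fed, in RNA (horizontal) and footprints (vertical) for the 11027 transcripts tested in both assays (grey) and the 7 enzymes among them (red, bars are SE); the dashed line marks equal change. ASNS stands at 4.53 and 4.31, PSPH lies above the line, and SHMT2 lies below it at an RNA change near 0 and a footprint change of -0.79.

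Counted over the enzymes, footprints were called higher for 5 of the 8 tested (ASNS, PSPH, PSAT1, MTHFD2 and PCK2), lower for 1 (SHMT2) and in neither direction for ALDH1L2 and GPT2. Among all 13457 transcripts tested for footprints, 39.8% were called, 18.9% higher and 20.9% lower. The median footprint log2 fold change was 1.04 over the 8 enzymes and 0.05 over all transcripts. Efficiency was called for 3 of 7 enzymes, higher for PSPH and lower for SHMT2 and MTHFD2, against 22.8% of 11027 transcripts, 11.1% higher and 11.7% lower. With library totals alone the split over all transcripts was 1567 higher and 803 lower in place of 1227 and 1292, and PSPH and SHMT2 were still called in the same directions.

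In RNA the change of ASNS (95% confidence interval 4.35 to 4.71) stood above those of the other enzymes. The interval of PSAT1 (1.71 to 2.00) began where that of MTHFD2 (1.42 to 1.71) ended. The interval of PSPH (1.17 to 1.53) overlapped those of its neighbours MTHFD2 and PCK2 (0.90 to 1.39), so its place between them is not settled by the spread of the libraries. In footprints PSPH (1.56 to 2.16) and PSAT1 (1.37 to 1.96) overlapped, as did MTHFD2 (0.84 to 1.34) and PCK2 (0.60 to 1.37). No test of the differences between enzymes was run.

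**Figure D3:**
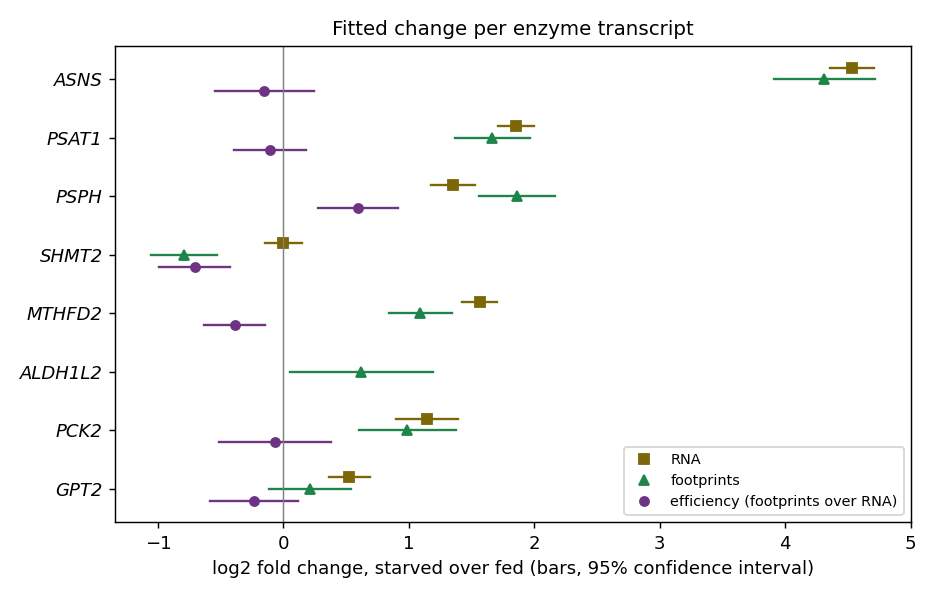
Fitted log2 fold changes, starved over fed, with 95% confidence intervals for RNA (squares), footprints (triangles) and efficiency (circles) of the 8 enzymes with counts. ALDH1L2 had too few RNA counts to pass the filter, so no RNA or efficiency value is shown for it. The efficiency intervals of PSPH, SHMT2 and MTHFD2 lie off 0, and those of ASNS, PSAT1, PCK2 and GPT2 span it.

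Together the enzymes took a larger share of the starved libraries. They held 0.220, 0.239 and 0.236% of RNA counts in starved replicates 1 to 3, against 0.0725, 0.0711 and 0.0694% in fed replicates 1 to 3. In footprints the share was 0.179, 0.236 and 0.227% in the starved libraries, against 0.0836, 0.0769 and 0.0751% in the fed libraries. The treatments did not overlap in either assay, and starved replicate 1 had the lowest footprint share of its group. ASNS alone made up 38.7 ± 1.48% of the enzymes' RNA counts in starved cells and 5.89 ± 0.658% in fed cells (SD, n = 3). In footprints it made up 50.1 ± 4.09% in starved and 6.65 ± 0.540% in fed cells (SD, n = 3). Without ASNS the share of RNA counts was 0.142 ± 0.00279% in starved and 0.0668 ± 0.00187% in fed cells, and the share of footprints 0.106 ± 0.00734% in starved and 0.0733 ± 0.00380% in fed cells (SD, n = 3). Shares are given with no test, because the set was put together with results known.

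**Figure D4:**
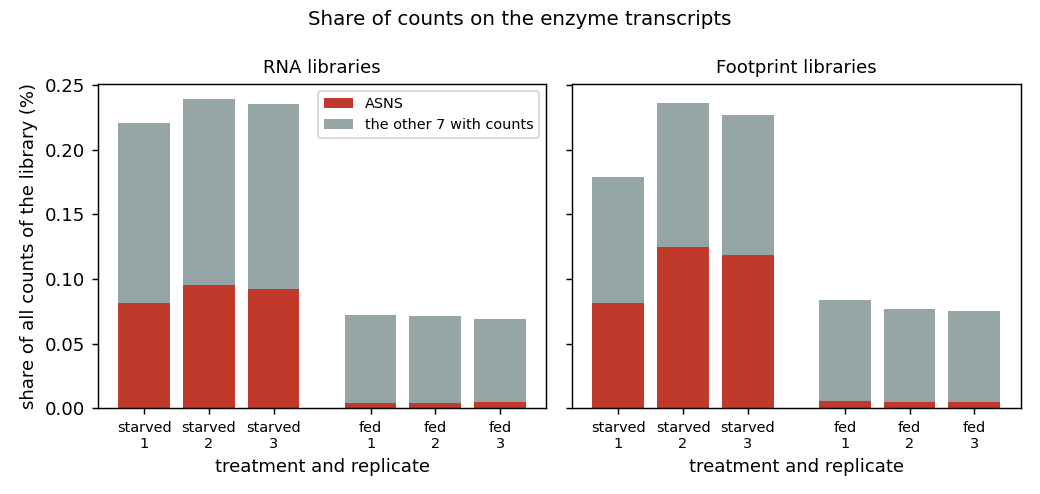
Share of all counts of each library (%, stacked bars from 0) that fell on ASNS (red) and on the other 7 enzymes with counts (grey), in RNA and footprint libraries, starved left of fed. The total is 0.220 to 0.239% of RNA counts in starved and 0.0694 to 0.0725% in fed libraries, and the ASNS part is wider in starved libraries of both assays.

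Some values carry limits from the counting. Pseudogene copies are annotated in RefSeq for ASNS (5), PSAT1 (4), PSPH (1) and MTHFD2 (7), and how reads shared with such copies were assigned is not given in the sources used here, so levels of these 4 are uncertain to that extent. Transcript lengths and the counted region are not used here. Shares of counts, the ASNS part among them, therefore depend on length as well as level, and levels of different genes were not compared otherwise. Of 32 further genes of these pathways that were listed, none could be looked up. The gene annotation used does not pair transcript identifiers with gene symbols, so 0 of the 19849 identifiers matched it.

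The transcripts whose profiles were most like that of the enzymes were ENST00000261739 and ENST00000304222, to which the tables give no gene names. Likeness was the root mean square distance to the median log2 CPM profile of the 7 enzymes tested in both assays. Profiles ran over the 12 libraries, centred on the fed mean of each assay, and 7010 other transcripts were compared. The distance was 0.0590 and 0.0912 log2 units for the 2 named transcripts, against a median of 0.912. ENST00000261739 had log2 fold changes of 1.42 in RNA and 1.16 in footprints, and ENST00000304222 of 1.48 in RNA and 1.09 in footprints. Both were picked for likeness in these same libraries, so changes near the enzymes' medians follow from that choice.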

How the data were processed

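Raw counts for each Ensembl transcript were deposited by the authors as whole numbers, 1 table per assay, without normalization. The submitters' processing notes name STAR, cutadapt, DESeq2, UMI-tools and the build GRCh38.p13. Versions, the counting tool and the counted region were not given in the sources used here. Every sample column was used and grouped by GEO's titles.

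The test was that of edgeR 4.0.16 under R 4.3.3 (glmQLFit and glmQLFTest, two-sided, TMM factors, filterByExpr). Treatment was the only term for RNA and for footprints, each fitted alone, and efficiency was the interaction of assay and treatment with TMM factors computed within each assay. P-values were adjusted over all transcripts tested, and the SE was derived from the F statistic. CPM used TMM-scaled library sizes of the tested transcripts, and shares of counts used library totals. The profile comparison took log2 of CPM plus 0.5 and a mean of at least 4 in both assays. The scripts were tested on simulated data in which only a small part of the transcripts changed. The scaling was therefore not tested under changes as frequent as those found here.

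Alternatives were DESeq2 size factors, library totals, no filter, the Wald test of DESeq2 1.42.0, a replicate block and leaving out each library. All 10 genes of the rule are accounted for by name. The genes and lists were chosen with earlier results of these data known. Protein sequences and coding lengths, planned as descriptions, were not analysed here.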

Additional observations from a re-analysis of the deposited data

Results flagged for a closer look

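For 3 of the 7 enzymes tested, the change in footprints differed from the change in RNA. The test of that difference was the assay by treatment interaction in the quasi-likelihood test of edgeR, Benjamini-Hochberg adjusted. It called 22.8% of all 11027 transcripts tested, 11.1% higher and 11.7% lower. For PSPH the interaction was 0.59 on the log2 scale (adjusted p = 0.00836, above 0 in all alternatives run). For SHMT2 it was -0.71 (adjusted p = 0.000971, below 0 in all alternatives run), with RNA that did not pass its own test. For MTHFD2 it was -0.39 (adjusted p = 0.0201), a call that 3 of the alternatives ended. The footprint change minus the RNA change of the separate fits was 0.51 for PSPH, -0.79 for SHMT2 and -0.47 for MTHFD2, each lower by 0.08 because scaling factors were recomputed for the joint model. The causes of these differences were not tested.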

How the results depend on the processing

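Refits of the 22 fitted changes of the enzymes gave 284 values, with values for several enzymes from each refit. RNA and efficiency values of ALDH1L2, which some refits gave, are not among them. Of the 284 values, 272 kept the direction and the side of the threshold. Another 3 ended a call, 1 made one and 8 turned the sign of a change that was never called. The RNA change of SHMT2 was -0.11 with library totals alone and lay between -0.079 and 0.10 when single libraries were left out. The efficiency change of PCK2 was 0.027 with library totals alone and between -0.25 and 0.045 without single libraries. The efficiency call of MTHFD2 ended with library totals alone (-0.29), with the replicate block (-0.38) and without fed footprint replicate 1 (-0.32), and a footprint call of ALDH1L2 was made without starved footprint replicate 3 (0.80); the cause was not tested. With library totals alone 803 transcripts had lower efficiency, against 1292 with TMM factors. The enzymes' share of RNA counts in fed cells was 0.0683% with TMM-scaled sizes, against 0.0710%. Leaving out single libraries gave ASNS changes of 4.50 to 4.61 in RNA and 4.18 to 4.45 in footprints, and 1905 to 2538 efficiency calls over all transcripts.

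Libraries of the same replicate number share only that number. Whether an RNA and a footprint library of one number came from the same cells was not checked. The efficiency model treated all 12 libraries as independent, and its replicate block was set within each assay. Deviations of same-numbered starved and fed libraries correlated at -0.02, 0.01 and 0.22 in RNA and at -0.32, -0.05 and -0.04 in footprints. In footprints no library correlated best with its own number, and among starved RNA libraries only replicate 3 did. The replicate block gave 7956 RNA, 4656 footprint and 2133 efficiency calls over all transcripts, against 7862, 5359 and 2519 without it. Depth limits ALDH1L2, with 26 RNA counts in starved and 29 in fed cells.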
